A study of Mus musculus with 6 samples.

Results

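Heat shock proteins and their partner chaperones were compared in gastrocnemius, a calf muscle made mostly of fast fibres, between mice whose MLL4SET knock-out is limited to muscle, labelled MLL4SET-MKO, and wild-type (WT) mice. The members are the rows of the authors' gene table whose symbol begins with Dnaj, Hspa, Hspb, Hspd, Hspe, Hsph or Hsp90, begins with Bag or Cct followed by a digit, or is Cryab, Hsf1, Hsf2 or Unc45b. This gave 94 of 25927 rows, with 93 symbols. The authors had tested 83 of the 94 and left 11 untested. Of the 83, 81 had a mean of at least 1 FPKM and are called measured here. FPKM counts fragments scaled to transcript length and library size, so levels can be set side by side between genes.

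There were 3 MLL4SET-MKO libraries and 3 WT libraries, all of C57BL/6J mice aged 8 weeks and all called biological replicates by the labels. Kmt2d encodes MLL4, an enzyme that methylates histone H3 at enhancers, and SET is its catalytic domain; the labels say no more of the allele. The sources used here do not name the promoter or recombinase behind the deletion. The authors' table holds 1 FPKM per group, so no value of a single mouse can be shown, and the read depth behind the FPKM is unknown. Kmt2d stood at 5.65 FPKM in MLL4SET-MKO and 8.77 FPKM in WT (log2 ratio -0.64, 95% interval -0.90 to -0.38). That level is for the gene as a whole, so it is no direct check of the SET exons.

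Chaperones hold unfolded proteins, pass them between machines and release them folded. HSP70 proteins bind short exposed stretches of a client in a cycle driven by ATP. J proteins (Dnaj) bring the client and start that cycle, and nucleotide exchange factors such as the Bag proteins end it. HSP90 takes over partly folded clients, small heat shock proteins hold damaged ones without using ATP, and the ring-shaped chaperonins HSP60 and CCT fold a protein inside a chamber. In muscle the contractile filaments are the main burden: myosin folds with Unc45b and HSP90, and Hspb8 with Bag3 clears damaged Z-disc proteins. The transcription factor Hsf1 switches many of these genes on when proteins unfold.

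Among chaperone genes with a row of their own, Hspa12a, Dnaja4, Dnajb5 and Bag2 were lower in MLL4SET-MKO than in WT muscle and Hspb8 was higher, by 1.28-fold (Hspb8) to 1.59-fold (Hspa12a). Rows count as called at q under 0.05, the authors' deposited value adjusted over all 13347 tested rows. Of the 83 tested members, 7 were called (8.43%), against 11.8% of all tested rows. Higher in MLL4SET-MKO were 2 members (2.41%, against 4.44% of all rows), and 5 were lower (6.02%, against 7.41%). At an unadjusted p under 0.05 in the authors' deposited table there were 17 members (20.5%, against 22.2% of all rows). Of these, 4 were higher (4.82%, against 8.8% of all rows) and 13 lower (15.7%, against 13.4%). At q under 0.01, 4 members remained (4.82%, against 7.85% of all rows), all of them lower. None of the 7 was called when the authors' test statistic was read as a normal deviate, a stricter reading under which 3.11% of all rows passed.

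The change of a member is the log2 of MLL4SET-MKO over WT after 1 FPKM was added to each, which shrinks the change of low genes. The median change of the 81 measured members was -0.01, beside -0.03 over all 11271 measured rows, and it was 0.02 once centred on those rows. The quartiles of the members were -0.14 and 0.10, beside -0.17 and 0.10 for all rows. A change beyond 0.50 in either direction was seen in 2 members (2.47%), beside 7.78% of all rows, and no member went beyond 1. Where a log2 ratio is given instead, it has no added FPKM, and its 95% interval was worked back from the authors' test statistic. For 50 of the 81 members this interval lay wholly within -0.50 to 0.50. Reading the statistic as a normal deviate would make each interval 1.73 times as wide, and the count was not made under that reading.

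**Figure D1:**
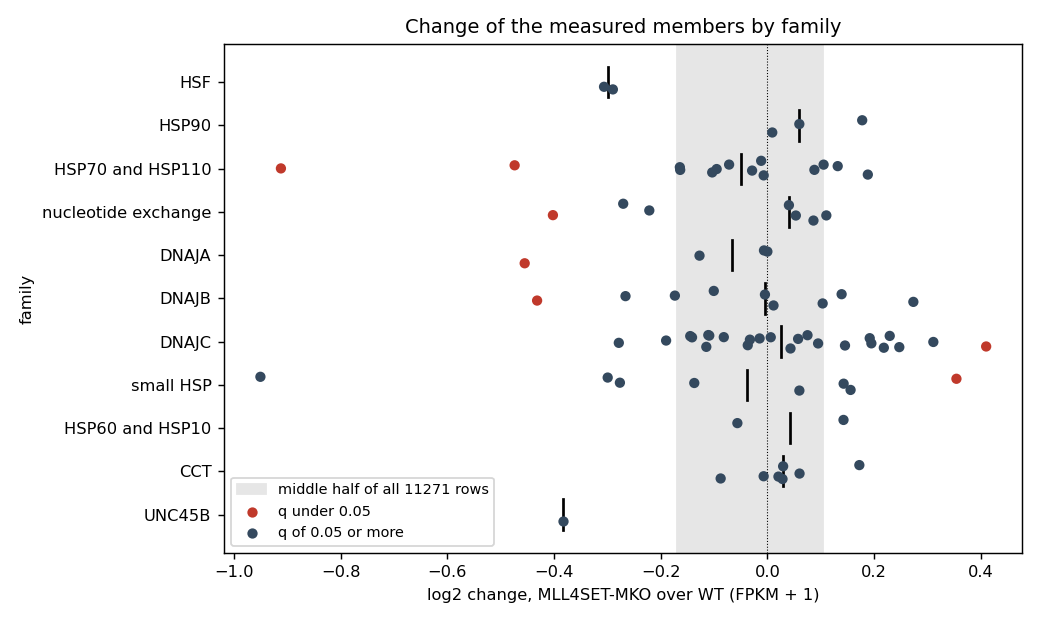
Log2 change of each of the 81 measured members (x axis, MLL4SET-MKO over WT, FPKM + 1) by family (y axis), with a black line at the family median, red points for q under 0.05 and a grey band between the quartiles of all 11271 measured rows. The 5 red points on the left are the members called lower and the 2 on the right are those called higher, while most points sit in or near the band.

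Fibre and cell type markers differed in the same comparison, in which 11.8% of all tested rows were called. All 10 slow fibre markers were called lower, with a summed level of 499 FPKM in MLL4SET-MKO and 1416 FPKM in WT, while the 10 fast fibre markers summed to 59600 FPKM in MLL4SET-MKO and 62425 FPKM in WT, with 1 called, lower. All 10 macrophage markers were higher in value and 6 were called, with a sum of 164 FPKM in MLL4SET-MKO and 102 FPKM in WT. Of 4 satellite cell markers, 3 were called lower, with a sum of 6.12 FPKM in MLL4SET-MKO and 9.17 FPKM in WT. Most of that sum was Chodl (4.87 FPKM in MLL4SET-MKO and 6.65 FPKM in WT). Only 2 of the 4 had a mean of at least 1 FPKM, and Pax7 was not called (0.42 FPKM in MLL4SET-MKO and 0.60 FPKM in WT). None of the endothelial, fibroblast, smooth muscle, Schwann cell, adipocyte and erythroid markers was called. Of them, Col3a1 alone had an unadjusted p under 0.05 in the authors' deposited table, beside 22.2% of all tested rows. All 10 endothelial and all 6 smooth muscle and pericyte markers were lower in value. Of 7 fibroblast markers 6 were higher in value, and the Schwann cell, adipocyte and erythroid lists were mixed. No marker stood at 0 in either group. The part of these differences in the chaperone values was not tested, and in bulk muscle fewer cells of a type and less RNA per cell cannot be told apart.

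Chaperone transcripts summed to 5957 FPKM in MLL4SET-MKO and 5844 FPKM in WT. That was 1.36% of the summed FPKM in MLL4SET-MKO and 1.32% in WT, over all rows but 11 whose estimate failed. The chaperone sum includes shared rows, such as Dnajc4, Nudt22 and Vegfb (165 FPKM in MLL4SET-MKO and 124 FPKM in WT). The 5 highest members were Hspb6, Hspa8, Hsp90ab1, Cryab and Hspb1 in both groups, and they held 48.5% of the chaperone FPKM in MLL4SET-MKO and 47.5% in WT. Their order differed: Hspb6 was first in MLL4SET-MKO (812 FPKM, Hspa8 783) and Hspa8 in WT (736 FPKM, Hspb6 735), and with 1 value per group the order itself has no error. By family, small heat shock proteins made up 34.5% of the chaperone FPKM in both groups. HSP70 and HSP110 genes made up 20.1% in MLL4SET-MKO and 19.9% in WT, and HSP90 genes 10.3% in MLL4SET-MKO and 9.43% in WT.

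**Figure D2:**
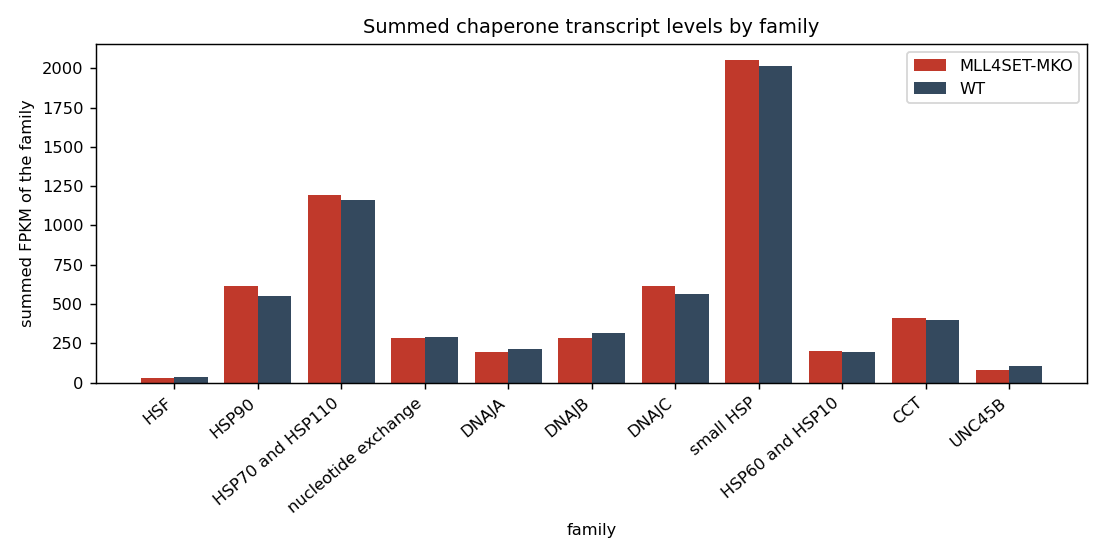
Summed FPKM (y axis, from 0) of each chaperone family (x axis), with MLL4SET-MKO in red left of WT in dark blue and 1 value per group without an error. Small heat shock proteins sum to 2053 FPKM in MLL4SET-MKO and 2014 FPKM in WT, and the bars of a family differ little beside the differences between families.

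The regulators were lower in value, without passing the threshold. Hsf1, the main switch of the heat shock response, stood at 18.4 FPKM in MLL4SET-MKO and 22.7 FPKM in WT (log2 ratio -0.30, interval -0.57 to -0.04, q = 0.14 in the authors' deposited table). Hsf2, a related factor that can pair with Hsf1, stood at 9.80 FPKM in MLL4SET-MKO and 12.4 FPKM in WT (log2 ratio -0.33, interval -0.60 to -0.07, q = 0.10 in the authors' deposited table). Both had an unadjusted p under 0.05 and neither was called.

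Hsf1 binds heat shock elements, which are runs of the letters GAA and their complement TTC in turn. RefSeq promoter windows on GRCm38.p6, from 250 bases before a transcript start to 50 after it, were at hand for 75 of the 93 member symbols. They were searched for 3 units in a row, GAANNTTCNNGAA, on both strands, and for a pair of units, GAANNTTC or TTCNNGAA, each of which reads the same on both strands. Every match of 3 units also holds overlapping pairs. Windows are shown for 2 members with a match of 3 units (Hspe1 and Hsph1), for the heat-inducible Hspa1a, and for 2 called members with pairs (Hspb8 and Dnaja4), so that their letters can be read beside their values. The windows of the other called members with a row of their own, Hspa12a, Dnajb5 and Bag2, held no pair. Nor did another window of Dnaja4. Capitals mark the match of 3 units where there is one and otherwise the pairs.
Hspe1: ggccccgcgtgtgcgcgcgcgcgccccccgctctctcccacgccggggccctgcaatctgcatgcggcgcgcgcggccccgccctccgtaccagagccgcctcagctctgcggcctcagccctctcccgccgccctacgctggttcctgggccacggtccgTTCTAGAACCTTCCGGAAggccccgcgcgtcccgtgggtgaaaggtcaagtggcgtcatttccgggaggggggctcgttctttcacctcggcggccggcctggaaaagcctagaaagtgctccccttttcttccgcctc
Hsph1: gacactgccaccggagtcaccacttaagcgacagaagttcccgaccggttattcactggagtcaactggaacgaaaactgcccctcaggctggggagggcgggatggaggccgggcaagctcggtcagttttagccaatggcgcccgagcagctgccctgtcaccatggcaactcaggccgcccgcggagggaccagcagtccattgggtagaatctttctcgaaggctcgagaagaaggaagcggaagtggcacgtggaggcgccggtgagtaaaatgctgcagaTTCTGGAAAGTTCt
Hspa1a: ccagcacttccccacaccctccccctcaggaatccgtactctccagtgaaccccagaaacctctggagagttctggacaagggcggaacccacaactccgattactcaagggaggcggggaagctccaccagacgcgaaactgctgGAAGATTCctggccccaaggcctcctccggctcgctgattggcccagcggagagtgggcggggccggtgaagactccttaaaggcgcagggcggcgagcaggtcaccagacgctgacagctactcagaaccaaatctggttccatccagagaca
Hspb8: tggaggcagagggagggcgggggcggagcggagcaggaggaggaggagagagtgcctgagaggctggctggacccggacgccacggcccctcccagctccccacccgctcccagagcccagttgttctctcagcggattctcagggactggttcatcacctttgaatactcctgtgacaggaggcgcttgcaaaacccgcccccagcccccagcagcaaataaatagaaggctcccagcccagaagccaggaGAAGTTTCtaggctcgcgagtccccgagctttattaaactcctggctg
Dnaja4: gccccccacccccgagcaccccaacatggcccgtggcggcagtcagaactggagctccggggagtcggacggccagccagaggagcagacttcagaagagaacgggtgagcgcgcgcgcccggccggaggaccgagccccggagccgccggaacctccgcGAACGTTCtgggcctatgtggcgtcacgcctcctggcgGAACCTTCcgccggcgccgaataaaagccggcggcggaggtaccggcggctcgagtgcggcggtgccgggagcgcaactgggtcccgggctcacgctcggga
These are chr1:55087898-55088197 (plus strand) for Hspe1, chr5:149636287-149636586 (minus) for Hsph1, chr17:34972107-34972406 (minus) for Hspa1a, chr5:116422815-116423114 (minus) for Hspb8 and chr9:54699309-54699608 (plus) for Dnaja4.

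A match of 3 units stood in the windows of 4 of the 75 members (5.33%), namely Hspd1, Hspe1, Hsph1 and Dnajb6, beside 0.66% of 27025 genes with a window. A pair or more stood in 21 of the 75 (28.0%), beside 17.0% of all genes. The 18 member symbols without a window were not searched, among them Hspa8, Hspa9, Hsp90aa1, Hsp90ab1, Cryab, Hspb2 and Hsf1. Hspd1 and Hspe1 lie head to head, and their windows share 285 bases. The same 18 bases, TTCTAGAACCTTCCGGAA at chr1:55088059-55088076, hold 4 alternating units and fall at -89 to -72 from the start of Hspe1 and at -144 to -127 from that of Hspd1, counting the start base as 0. Among measured members with a window and a row of their own, the median change was 0.06 for the 4 with 3 units, -0.01 for 14 with pairs only and -0.01 for 44 with no match. Matched letters are a description and not a bound site. Only exact letters were searched, so a window without a match may still hold an element. The windows of the heat-inducible Dnajb1, for example, held no match.

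**Figure D3:**
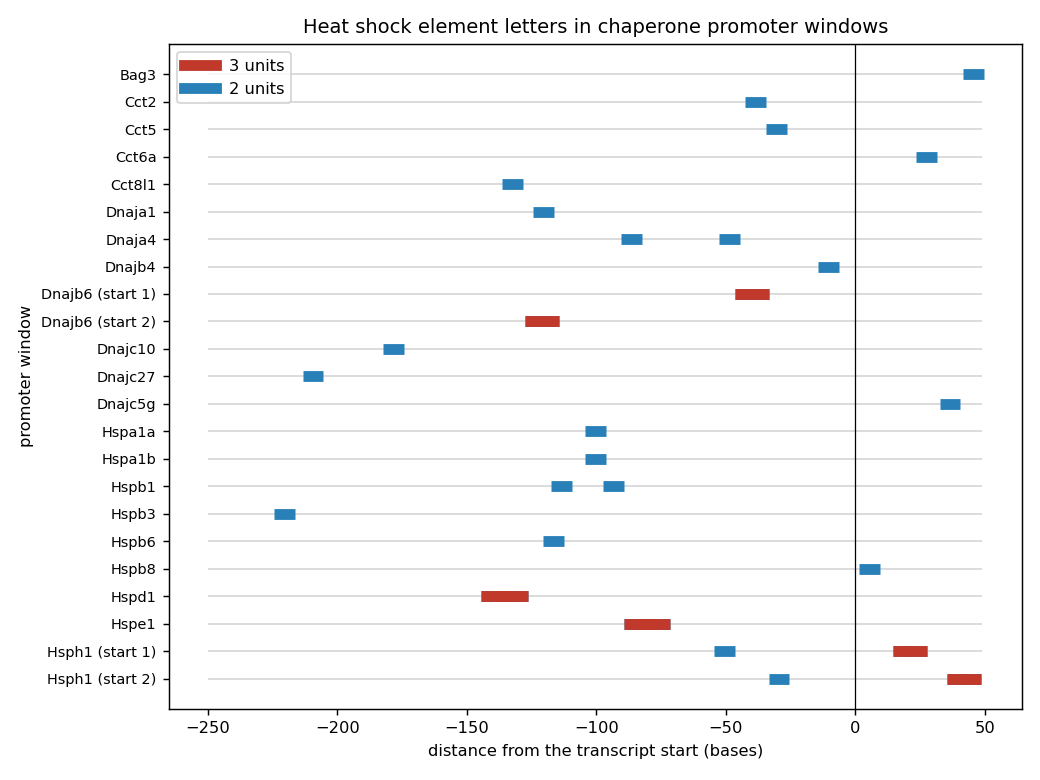
Position of heat shock element letters (x axis, bases from the transcript start, which is 0) in the promoter windows of members that hold any (y axis, 1 line per window), with matches of 3 units in red and of 2 units in blue. Red bars are seen for Dnajb6, Hspd1, Hspe1 and Hsph1, and the single pairs of Hspa1a and Hspa1b sit at the same distance, -104 to -97 from the start.

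None of the 3 HSP90 genes was called, beside 11.8% of all tested rows. None had an unadjusted p under 0.05 in the authors' deposited table, beside 22.2% of all tested rows. Hsp90ab1, the constitutive cytosolic form, stood at 517 FPKM in MLL4SET-MKO and 457 FPKM in WT (log2 ratio 0.18, interval -0.07 to 0.43). Hsp90aa1, the stress-inducible cytosolic form, stood at 44.7 FPKM in MLL4SET-MKO and 44.4 FPKM in WT. The constitutive form was thus 11.6 times the inducible one in MLL4SET-MKO and 10.3 times in WT. Hsp90b1, the HSP90 of the endoplasmic reticulum (ER), stood at 51.8 FPKM in MLL4SET-MKO and 49.7 FPKM in WT.

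Of 15 tested rows of HSP70 and HSP110 genes, 2 were called, beside 11.8% of all tested rows. Both were lower, and 1 of these also carries another gene. Hspa12a, a distant relative of HSP70, fell to 1.91 FPKM in MLL4SET-MKO, against 3.05 FPKM in WT (1.59-fold lower, log2 ratio -0.67, interval -0.99 to -0.35, q = 0.0017 in the authors' deposited table). It is protein-coding and lies on chromosome 19 (58795751 to 58860984, minus strand, mm10). At this low level the added FPKM matters: the change was -0.47 with 1 FPKM added and -0.22 with 5.

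The row of Hspa1l and Lsm2 (chromosome 17, 34972568 to 34985893) fell to 11.6 FPKM in MLL4SET-MKO, against 22.7 FPKM in WT (1.96-fold lower, log2 ratio -0.97, interval -1.37 to -0.57, q = 0.000903 in the authors' deposited table). Hspa1l is an HSP70 gene known mainly from testis, and Lsm2 encodes a subunit of a ring that binds the U6 RNA of the splicing machinery. A second row at the same locus carries Hspa1l alone, at 1.02 FPKM in MLL4SET-MKO and 0.689 FPKM in WT, and was not called. The fall of the shared row therefore cannot be assigned to Hspa1l.

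The abundant HSP70 genes were not called. Hspa8, the constitutive HSP70 of the cytosol, stood at 783 FPKM in MLL4SET-MKO and 736 FPKM in WT (log2 ratio 0.09, interval -0.18 to 0.35). Hspa9, the HSP70 of the mitochondrial matrix, stood at 165 FPKM in MLL4SET-MKO and 176 FPKM in WT. Hspa5, known as BiP, is the HSP70 of the ER and stood at 97.0 FPKM in MLL4SET-MKO and 85.0 FPKM in WT. The heat-inducible genes were low in both groups: Hspa1a stood at 14.1 FPKM in MLL4SET-MKO and 15.9 FPKM in WT, and Hspa1b at 18.8 FPKM in MLL4SET-MKO and 19.2 FPKM in WT.

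The split between Hspa1a and Hspa1b is uncertain, since 99.4% of their coding bases are identical. Their sum was 32.9 FPKM in MLL4SET-MKO and 35.1 FPKM in WT, so Hspa8 was 23.8 times that sum in MLL4SET-MKO and 21.0 times in WT. Among the HSP110 genes, which act as exchange factors for HSP70, Hsph1 stood at 38.8 FPKM in MLL4SET-MKO and 36.0 FPKM in WT, and Hspa4 at 37.2 FPKM in MLL4SET-MKO and 37.4 FPKM in WT. The intervals of both log2 ratios lay within -0.50 to 0.50. The other tested genes of the family, Hspa2, Hspa4l, Hspa12b, Hspa13 and Hspa14, were not called, with changes between -0.16 (Hspa12b) and 0.13 (Hspa2). Hspa12b shares its locus with many other rows, and its log2 ratio of -0.18 had an interval of -1.81 to 1.45.

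Of 7 nucleotide exchange genes, 1 was called, beside 11.8% of all tested rows. Bag2, which also holds back the ubiquitin ligase CHIP, fell to 8.59 FPKM in MLL4SET-MKO, against 11.7 FPKM in WT (1.36-fold lower, log2 ratio -0.44, interval -0.73 to -0.15, q = 0.027 in the authors' deposited table). The gene is protein-coding and lies on chromosome 1 (33745484 to 33757750, minus strand, mm10). Bag1, the highest of the family, stood at 122 FPKM in MLL4SET-MKO and 118 FPKM in WT, and Bag3 at 69.0 FPKM in MLL4SET-MKO and 64.9 FPKM in WT. Bag6, which guards membrane proteins before they reach the ER, stood at 52.9 FPKM in MLL4SET-MKO and 64.1 FPKM in WT (q = 0.14 in the authors' deposited table). The other 3, Bag4, Bag5 and Hspbp1, were not called, with changes of -0.22 for Bag4, 0.04 for Bag5 and 0.11 for Hspbp1.

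J proteins gave 3 calls among 37 tested rows, 1 in each class, beside 11.8% of all tested rows called. The call in the third class is on a row of several genes. Dnaja4, a cytosolic partner of HSP70, fell to 32.2 FPKM in MLL4SET-MKO, against 44.4 FPKM in WT (1.38-fold lower, log2 ratio -0.47, interval -0.71 to -0.22, q = 0.000903 in the authors' deposited table). It is protein-coding and lies on chromosome 9 (54699559 to 54716317, plus strand, mm10), at a locus shared with Mir5710, which is listed at 0. Its promoter window printed above holds 2 separate pairs of heat shock units, and its other window holds none. The other 3 class A genes were not called: Dnaja2 stood at 86.3 FPKM in MLL4SET-MKO and 94.4 FPKM in WT, the mitochondrial Dnaja3 at 54.3 FPKM in MLL4SET-MKO and 54.5 FPKM in WT, and Dnaja1 at 20.4 FPKM in both.

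Dnajb5, the highest of the class B genes in both groups, fell to 71.4 FPKM in MLL4SET-MKO, against 96.7 FPKM in WT (1.35-fold lower, log2 ratio -0.44, interval -0.68 to -0.19, q = 0.0074 in the authors' deposited table). It is a protein-coding gene on chromosome 4 (42953094 to 42958732, plus strand, mm10), whose protein has been tied to the class IIa histone deacetylase HDAC4 in heart muscle cells. Its RefSeq windows, between 42949617 and 42950445 on chromosome 4, held no pair of heat shock units. They lie upstream of the row's start at 42953094, which was itself not searched. Dnajb6, mutated in a human limb-girdle muscular dystrophy, stood at 51.4 FPKM in MLL4SET-MKO and 50.9 FPKM in WT, and its log2 ratio had an interval of -0.24 to 0.27. Dnajb1, the classic heat-inducible J protein, stood at 7.99 FPKM in MLL4SET-MKO and 7.16 FPKM in WT. Dnajb11, an ER partner of Hspa5, stood at 23.6 FPKM in MLL4SET-MKO and 19.3 FPKM in WT (q = 0.16 in the authors' deposited table). The other 5 tested class B genes were not called, with changes between -0.27 (Dnajb12) and 0.10 (Dnajb9).

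Beside 11.8% of all tested rows, 1 of 24 tested class C rows was called. It is shared by Dnajc4, Nudt22 and Vegfb (chromosome 19, 6982472 to 6996088) and rose to 165 FPKM in MLL4SET-MKO, against 124 FPKM in WT (log2 ratio 0.41, interval 0.15 to 0.67, q = 0.022 in the authors' deposited table). Vegfb encodes a growth factor of the VEGF family that muscle makes in quantity, so the rise cannot be assigned to Dnajc4. Without that row, class C genes summed to 451 FPKM in MLL4SET-MKO and 443 FPKM in WT.

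The largest changes of class C genes with a row of their own were not called. Dnajc28 stood at 13.0 FPKM in MLL4SET-MKO and 10.3 FPKM in WT (log2 ratio 0.34, interval 0.08 to 0.59, q = 0.065 in the authors' deposited table). Dnajc27, which carries a small GTPase domain as well as a J domain, stood at 28.9 FPKM in MLL4SET-MKO and 35.2 FPKM in WT (log2 ratio -0.29, interval -0.53 to -0.04). Dnajc1, an ER membrane protein, stood at 5.59 FPKM in MLL4SET-MKO and 4.55 FPKM in WT. Dnajc15, of the mitochondrial inner membrane, stood at 80.2 FPKM in MLL4SET-MKO and 68.3 FPKM in WT (log2 ratio 0.23, interval -0.03 to 0.49). Dnajc19, which drives protein import into the mitochondrial matrix, stood at 61.0 FPKM in MLL4SET-MKO and 58.5 FPKM in WT, but its locus is shared with Fxr1 and the interval of its log2 ratio ran from -1.08 to 1.20. The other 18 tested class C genes were not called, with changes between -0.19 (Dnajc13) and 0.22 (Dnajc2).

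**Figure D4:**
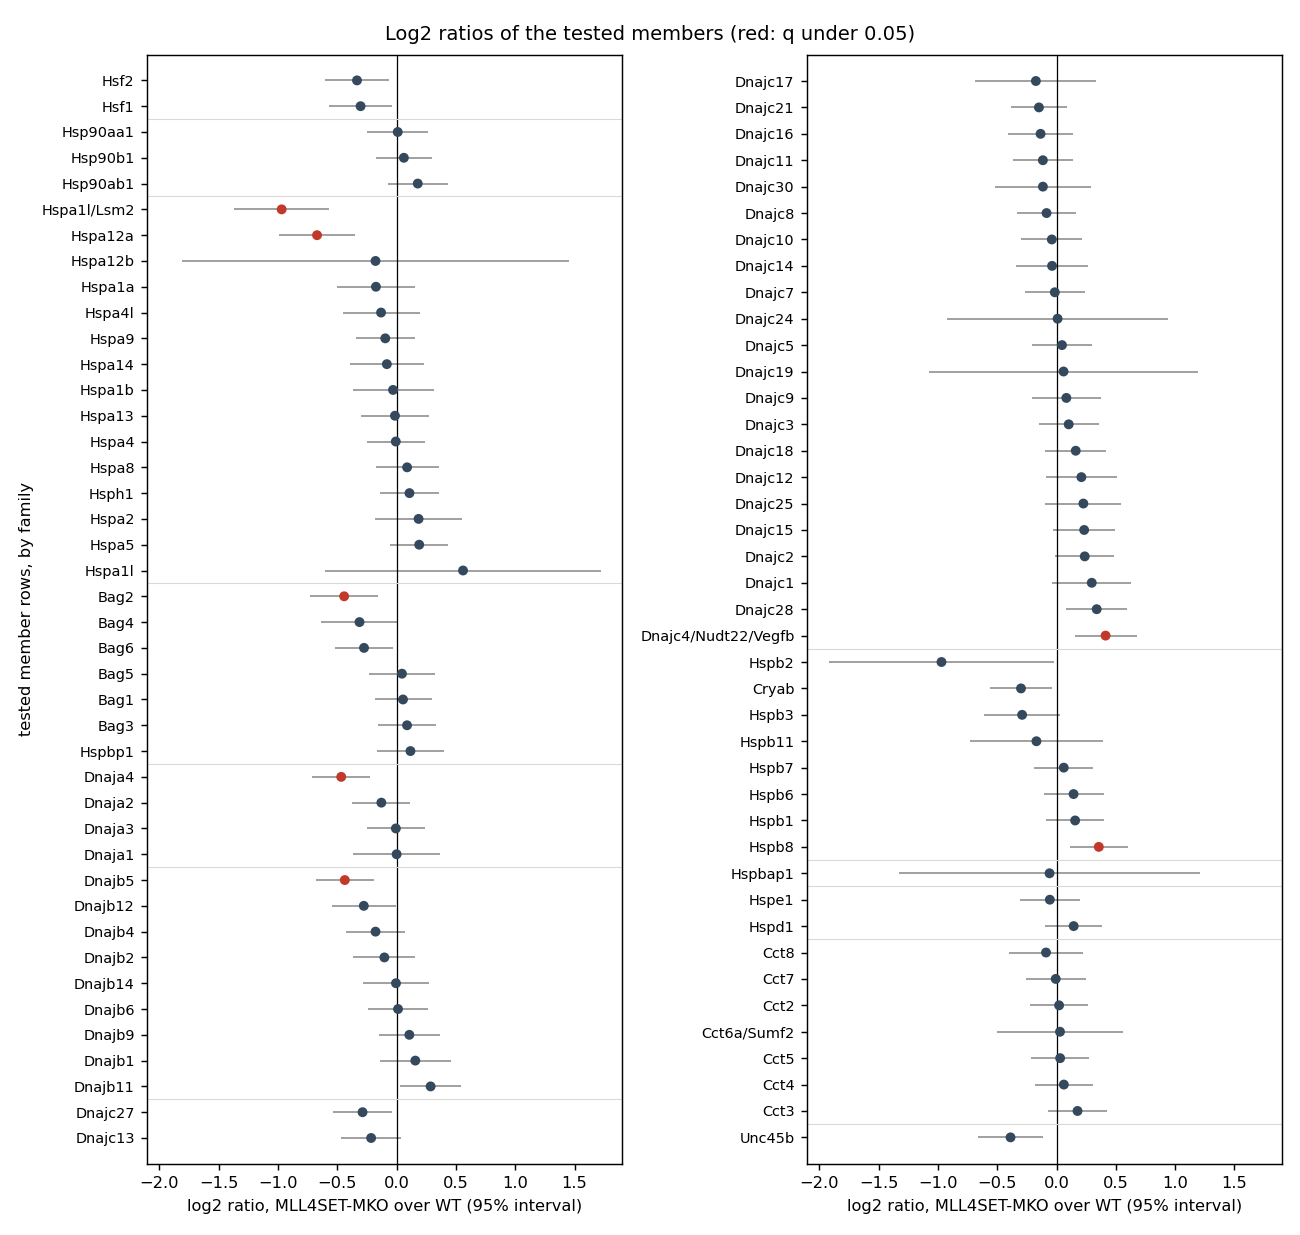
Log2 ratio (x axis, MLL4SET-MKO over WT, no added FPKM) with its 95% interval for each of the 83 tested members (y axis, by family, in 2 panels), red where q was under 0.05. The widest intervals belong to Hspa12b, Hspbap1, Hspa1l, Dnajc19, Hspb2 and Dnajc24, all of which share a locus with other rows.

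Small heat shock proteins included 1 call among 8 tested genes, beside 11.8% of all tested rows called. The family was set by symbol alone, Cryab or Hspb followed by a number, so it also counts Hspb11. Hspb8, the partner of Bag3 in clearing damaged filament proteins and a gene mutated in human motor neuropathy and myopathy, rose to 287 FPKM in MLL4SET-MKO, against 224 FPKM in WT (1.28-fold, log2 ratio 0.36, interval 0.11 to 0.60, q = 0.038 in the authors' deposited table). It is protein-coding and lies on chromosome 5 (116408491 to 116422864, minus strand, mm10). Of the 7 calls it was the one nearest to the threshold. Relative to Bag3, Hspb8 stood at 4.16 times in MLL4SET-MKO and 3.45 times in WT, a ratio for which no test was made.

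The other abundant small heat shock genes were not called. Hspb6 stood at 812 FPKM in MLL4SET-MKO and 735 FPKM in WT (log2 ratio 0.14, interval -0.11 to 0.40), Hspb1 at 334 FPKM in MLL4SET-MKO and 299.8 FPKM in WT, and Hspb7 at 119.9 FPKM in MLL4SET-MKO and 115 FPKM in WT. Cryab, the alpha-B crystallin that binds desmin and is known to be richer in slow than in fast fibres, stood at 443 FPKM in MLL4SET-MKO and 545 FPKM in WT (log2 ratio -0.30, interval -0.56 to -0.04, q = 0.13 in the authors' deposited table). Slow fibre markers were lower in the same comparison, as given above, and any link to the Cryab value was not tested. In all, 4 tested members of the family were higher in value and 4 lower, with Hspb11 among the lower.

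Hspb2, the neighbour of Cryab, had the largest decrease in value of any measured member once 1 FPKM was added (change -0.95). It stood at 34.8 FPKM in MLL4SET-MKO and 68.1 FPKM in WT (log2 ratio -0.97, interval -1.92 to -0.02) and was not called (q = 0.20 in the authors' deposited table). Both genes share 1 locus in the authors' table (chromosome 9, 50751072 to 50756642), on opposite strands, and the sources used here do not say whether strand was used in counting. Hspb2 was 7.84% of the Cryab level in MLL4SET-MKO and 12.5% in WT. Hspb3, a muscle partner of Hspb2, stood at 17.8 FPKM in MLL4SET-MKO and 21.7 FPKM in WT and was not called either.

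Among the chaperonins (2 rows of HSP60 and HSP10, 7 tested rows of CCT) none was called, beside 11.8% of all tested rows. None had an unadjusted p under 0.05 in the authors' deposited table, beside 22.2% of all tested rows. Hspd1 (HSP60), which forms the mitochondrial ring, stood at 115 FPKM in MLL4SET-MKO and 104 FPKM in WT. Hspe1 (HSP10), its lid, stood at 84.7 FPKM in MLL4SET-MKO and 88.1 FPKM in WT. The 2 genes share the element printed above and differed in sign, with log2 ratios of 0.14 for Hspd1 (interval -0.10 to 0.38) and -0.06 for Hspe1 (interval -0.31 to 0.20), whose intervals overlap.

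The cytosolic ring CCT, which folds actin and tubulin, had subunits at like levels. The 8 of them, counted with Tcp1, lay between 45.4 and 72.9 FPKM in MLL4SET-MKO and between 40.2 and 74.3 FPKM in WT. Their levels varied by 15.2% around the mean in MLL4SET-MKO and by 17.5% in WT (coefficient of variation over subunits). The log2 ratios of all 8 lay between -0.09 (Cct8) and 0.18 (Cct3). Tcp1, whose symbol lies outside the rule for members, was the highest of the 8. Cct5, the highest of those with a Cct symbol, stood at 69.1 FPKM in MLL4SET-MKO and 67.7 FPKM in WT, and the row of Cct6a and Sumf2 at 63.7 FPKM in MLL4SET-MKO and 62.4 FPKM in WT.

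Unc45b, the muscle chaperone that folds the myosin head, lay just outside the threshold. It stood at 78.7 FPKM in MLL4SET-MKO and 103 FPKM in WT (log2 ratio -0.39, interval -0.66 to -0.11). The authors' deposited table gives q = 0.053 for it and q = 0.038 for Hspb8, the member just inside. Its locus is shared with Slfn5 and Slfn5os. Smyd1, which binds Unc45b, stood at 204 FPKM in MLL4SET-MKO and 213 FPKM in WT and was not called.

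The 11 untested members were at most 0.245 FPKM in either group. They were Cct6b, Cct8l1, Dnajb3, Dnajb7, Dnajb8, Dnajb13, Dnajc5b, Dnajc5g, Dnajc6, Dnajc22 and Hspb9, and Dnajb8, Dnajc5b, Dnajc5g and Dnajc22 were listed at 0 in both groups. Many of these are known from testis, such as Dnajb3, Dnajb13, Cct6b and Hspb9. Hspbap1, a binding partner of Hspb1, was tested at 0.914 FPKM in MLL4SET-MKO and 0.952 FPKM in WT and was not called.

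**Figure D5:**
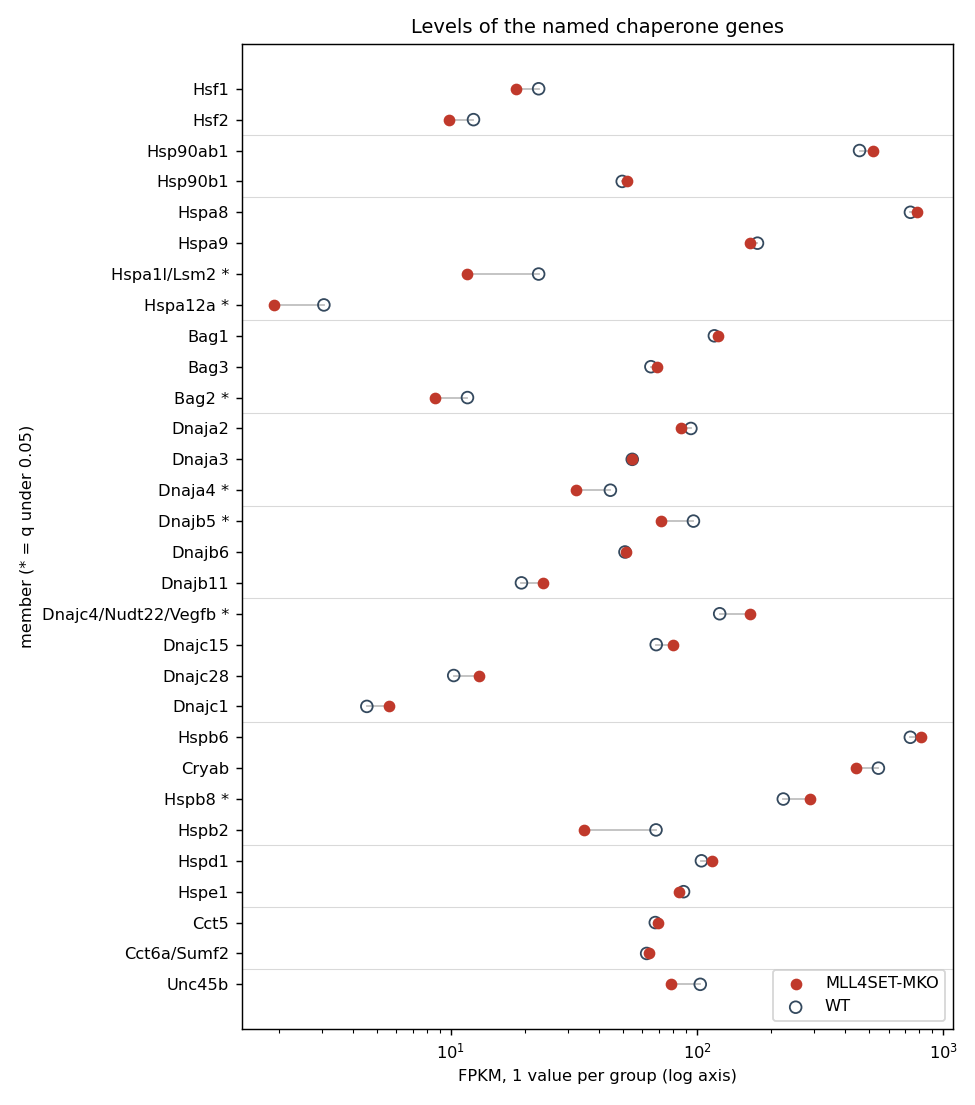
Level in FPKM (x axis, log axis) of the 30 member rows named by the rule (y axis, by family), with a red point for MLL4SET-MKO, an open circle for WT and a star for q under 0.05. The points span from 1.91 FPKM (Hspa12a in MLL4SET-MKO) to 812 FPKM (Hspb6 in MLL4SET-MKO), and most pairs nearly coincide.

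A group of 7 members of the ER (Hspa5, Hsp90b1, Dnajb9, Dnajb11, Dnajc1, Dnajc3 and Dnajc10), chosen after their values were seen, had changes between -0.04 (Dnajc10) and 0.27 (Dnajb11). None of the 7 was called, beside 11.8% of all tested rows. Of the 7, Dnajb11 alone had an unadjusted p under 0.05, beside 22.2% of all tested rows. Of 7 members chosen as working in mitochondria (Hspa9, Hspd1, Hspe1, Dnaja3, Dnajc11, Dnajc15 and Dnajc19), also grouped afterwards, 3 were higher in value. None was called or had an unadjusted p under 0.05, beside 11.8% and 22.2% of all tested rows. Neither group of 7 is a full list, so these counts hold for the genes named. Among members left out were Hspa13 (change -0.01), Dnajb12 (-0.27) and Dnajc28 (0.31). Of those, Dnajb12 and Dnajc28 had an unadjusted p under 0.05 in the authors' deposited table. The list of other ER folding genes holds 16 tested genes such as Calr and P4hb. None of them was called or had an unadjusted p under 0.05, beside 11.8% and 22.2% of all tested rows. Calr, a sugar-binding ER chaperone, stood at 86.6 FPKM in MLL4SET-MKO and 76.8 FPKM in WT, and the disulfide isomerase P4hb at 84.2 FPKM in MLL4SET-MKO and 104 FPKM in WT. The list had 8 genes higher and 8 lower in value.

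The other chaperone lists gave 4 calls among 62 tested rows (6.45%, against 11.8% of all tested rows), 1 higher (1.61%, against 4.44%) and 3 lower (4.84%, against 7.41%). Among 20 tested co-chaperones of HSP70 and HSP90, 2 were called, both lower. Fkbp5, a partner of steroid receptors on HSP90 that glucocorticoids induce, fell to 17.3 FPKM in MLL4SET-MKO, against 23.9 FPKM in WT (log2 ratio -0.46, q = 0.007 in the authors' deposited table). Ttc4, an HSP90 partner, fell to 12.6 FPKM in MLL4SET-MKO, against 17.5 FPKM in WT (log2 ratio -0.47, q = 0.003 in the authors' deposited table). The median change of this list was -0.06.

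Among 6 partners of the Bag3 and Hspb8 clearance route, 1 was called higher and 1 lower. Over all tested rows, 4.44% were called higher and 7.41% lower. The autophagy receptor Sqstm1 rose to 374 FPKM in MLL4SET-MKO, against 269.7 FPKM in WT (log2 ratio 0.47, q = 0.0025 in the authors' deposited table). Flnc, the Z-disc filamin that is a client of this route, fell to 79.3 FPKM in MLL4SET-MKO, against 105 FPKM in WT (log2 ratio -0.40, q = 0.020 in the authors' deposited table). Synpo2, which links Bag3 to autophagy, stood at 153 FPKM in MLL4SET-MKO and 167 FPKM in WT and was not called. Nor were Map1lc3b, Vps18 and the row of Stub1 and Rhbdl1.

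No gene was called among 9 prefoldin and chaperonin partners or 12 genes of mitochondrial protein quality, beside 11.8% of all tested rows. No prefoldin gene had an unadjusted p under 0.05, and 1 mitochondrial gene did, beside 22.2% of all tested rows. That gene was the protease subunit Spg7, at 55.5 FPKM in MLL4SET-MKO and 44.5 FPKM in WT. Tcp1, the highest of the prefoldin list beside the row of Pfdn5 and Myg1, stood at 72.9 FPKM in MLL4SET-MKO and 74.3 FPKM in WT. Trap1, the mitochondrial HSP90, stood at 64.1 FPKM in MLL4SET-MKO and 60.4 FPKM in WT. The median changes were -0.01 for the prefoldin list and 0.05 for the mitochondrial one.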

How the data were processed

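Per the labels' protocols, Trizol RNA of flash-frozen muscle went into NEBNext Ultra libraries. The submitters' processing notes name TopHat2 2.0.14, Cufflinks 2.2.1, FastQC 0.11.3, bcl2fastq and the build mm10 (GRCm38). The sources used here name neither the annotation release nor the use of strand. The deposited table gives, per the file headers, 1 FPKM per group over its 3 libraries, with the authors' p-value and q-value per row. It also holds the authors' test statistic, a score without a fixed range. FPKM keeps no read depth, so no floors or intervals from counts are given.

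The p-values rest on the authors' model of spread between libraries. A row was called at q under 0.05 among 13347 tested rows. Adjusting the deposited p-values over those rows by Benjamini-Hochberg matched the authors' q to within 7.2e-05. The smallest p the table gives is 5e-05, shared by 739 rows. The SE of a log2 ratio was the ratio divided by 1.73 times the test statistic, where 1.73 links the statistic to the deposited p-value over 7712 rows, and 95% intervals follow from it. On simulated data built with this same link, the calculation returned the values put in. That checks the arithmetic and cannot show that the authors' statistic follows the link. Changes used log2(FPKM + 1), and members with a mean of at least 1 FPKM are measured. Promoters are RefSeq windows on GRCm38.p6, and 91 members with 1 symbol matched a GENCODE M21 gene of the same build.

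Members described in full are all called rows, the 2 highest of each family and the 5 largest changes each way. Others were named for their known role after values were seen. Members, lists and tests were chosen with earlier results of these data known. Alternatives were other readings of the test, a stricter q, other pseudocounts, minimums and scalings, and rows of 1 symbol.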

Additional observations from a re-analysis of the deposited data

How the results depend on the processing

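No paired analysis was possible because the table holds 1 value per group, and for the same reason no replicate could be left out. Taking the authors' test statistic for a normal deviate left 0 members called (4 had an unadjusted p under 0.05), 0 of them higher and 0 lower, and 0 of the other chaperone genes, 0 higher and 0 lower. At q under 0.01, 4 members were called, 0 higher and 4 lower, beside 3 other chaperone genes, 1 higher and 2 lower. With rows of 1 symbol alone, 5 members were called, 1 higher and 4 lower, beside 11.6% of all such rows. With rows of at least 1 FPKM adjusted anew, 7 were called, 2 higher and 5 lower, beside 12% of all such rows. The median change of the members was 0.02 after centring on the median of all rows (-0.03), 0.01 after scaling to summed FPKM, and -0.01 with other pseudocounts. Of 120 alternative values for 30 named members, 118 moved by less than their error. The 2 others were Hspa12a, whose change was -0.64 with 0.1 FPKM added and -0.22 with 5, beside -0.47 with 1. Of the named members, Dnaja3 alone changed sign, between -0.01 and 0.02. What depth limits cannot be said, since FPKM carries none.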
